A study of Homo sapiens with 27 samples.

Results

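The 7 human genes described here belong to platinum and copper uptake and export, glutathione conjugation and metal binding: SLC31A1, ATP7B, ABCC2, GSTP1, MT2A, MT1E and MT1X. They were chosen by name. Their transcript 3′ ends were taken as the merged peaks of 27 3′-seq peak lists that overlapped a window around each gene on its strand, and 49 of 233020 merged peaks did so. ABCC2 held 25 of them, SLC31A1 held 9, GSTP1 held 5, MT2A and MT1X held 3 each, and MT1E and ATP7B held 2 each. Ends are numbered along the gene in its own direction, and the end with the highest summed count over the 27 libraries is called the leading end.

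The study sequenced poly(A)+ RNA ends of 3 lung cancer cell lines, with 3 libraries in each of 9 groups, to compare cisplatin-treated with vehicle-treated cells and cisplatin-resistant with sensitive cells. H358 RNA came from whole cells given cisplatin, oxaliplatin or the vehicle DMSO. A549 RNA came from heavy polysomes (messenger RNA that carries many ribosomes) and from the cytosol, and RNA of A549R, read as the cisplatin-resistant counterpart of A549, came from the cytosol, in each case after cisplatin or DMSO. Both drugs were given at 100 µM, and the time of exposure is not given in the sources used here. Nothing in the labels says that libraries of a group came from separate cultures, so the p-values measure the spread between these libraries, which may be technical. Lines and extracts were not crossed, so H358 whole cells and A549 cytosol differ in both and the 2 differences cannot be told apart.

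Cisplatin and oxaliplatin are platinum complexes. Cisplatin carries ammine and chloride ligands, and oxaliplatin carries a diaminocyclohexane and an oxalate ligand in their place. SLC31A1 encodes the copper importer CTR1, which is known to contribute to cisplatin uptake, and ATP7B encodes a copper-exporting ATPase. ABCC2 encodes the export pump MRP2, which carries glutathione conjugates out of the cell, and GSTP1 encodes a glutathione transferase that joins glutathione to reactive compounds. Metallothioneins, encoded by MT2A, MT1E and MT1X among others, are small cysteine-rich proteins that hold zinc, copper, cadmium and platinum. Their genes form a cluster and respond to zinc and other metals through the factor MTF1, which binds metal response elements, and GSTP1 belongs to the genes with an antioxidant response element.

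Total counts per library ran from 3024814 to 11997535. The smallest count in any list was 5, so an end that a list lacks is called not listed and is never read as 0. The lists were of 2 kinds: 16 gave 73.1% to 79.4% of their own peak numbers, and 11 gave 30.6% to 42.3%. The short lists were those of H358 oxaliplatin, of A549 cytosol after both treatments and of the polysome libraries numbered 3. For that reason tests used only measured ends, meaning merged peaks listed in every library of a fit. Levels are given as normalised counts in CPM, counts scaled to a common library size, over the 10283 merged peaks that all 27 lists hold.

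The leading ends differed in where they were listed. Positions are in hg19, the human build that the peak positions fit. MT2A ended at chromosome 16, 56643125 to 56643438, plus strand, and MT1X at chromosome 16, 56717835 to 56718124, plus strand. GSTP1 ended at chromosome 11, 67353850 to 67354139, plus strand, and SLC31A1 at chromosome 9, 116026504 to 116026779, plus strand. All 27 libraries listed these 4 ends. The MT1E leading end, at chromosome 16, 56660733 to 56661034, plus strand, was listed in 9 of 9 H358 libraries and in 0 of 18 A549 and A549R libraries. ABCC2 was the reverse, since its leading end at chromosome 10, 101611253 to 101612362, plus strand, was listed in 18 of 18 A549 and A549R libraries and no ABCC2 end was listed in any of the 9 H358 libraries. In the libraries without these genes, 5 counts were worth between 0.752 and 3.36 CPM in A549 and A549R and between 0.847 and 3.46 CPM in H358. No annotation of that build was used here, so ends are not assigned to exons or introns.

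ATP7B was close to the listing limit. Its leading end, at chromosome 13, 52506799 to 52506905, minus strand, was listed in 8 libraries with 85 counts in all and in none of the H358 libraries. It stood at 1.94 and 3.91 CPM in the A549 polysome cisplatin libraries numbered 1 and 2, and at 2.11, 3.06 and 2.62 CPM in the polysome DMSO libraries. One A549R DMSO library listed it at 1.27 CPM and a pair of A549 cytosol DMSO libraries at 1.36 and 1.68 CPM. No cytosol cisplatin library of either line listed it. These values rest on 5 to 26 counts a library, and ATP7B was measured in no comparison.

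**Figure D1:**
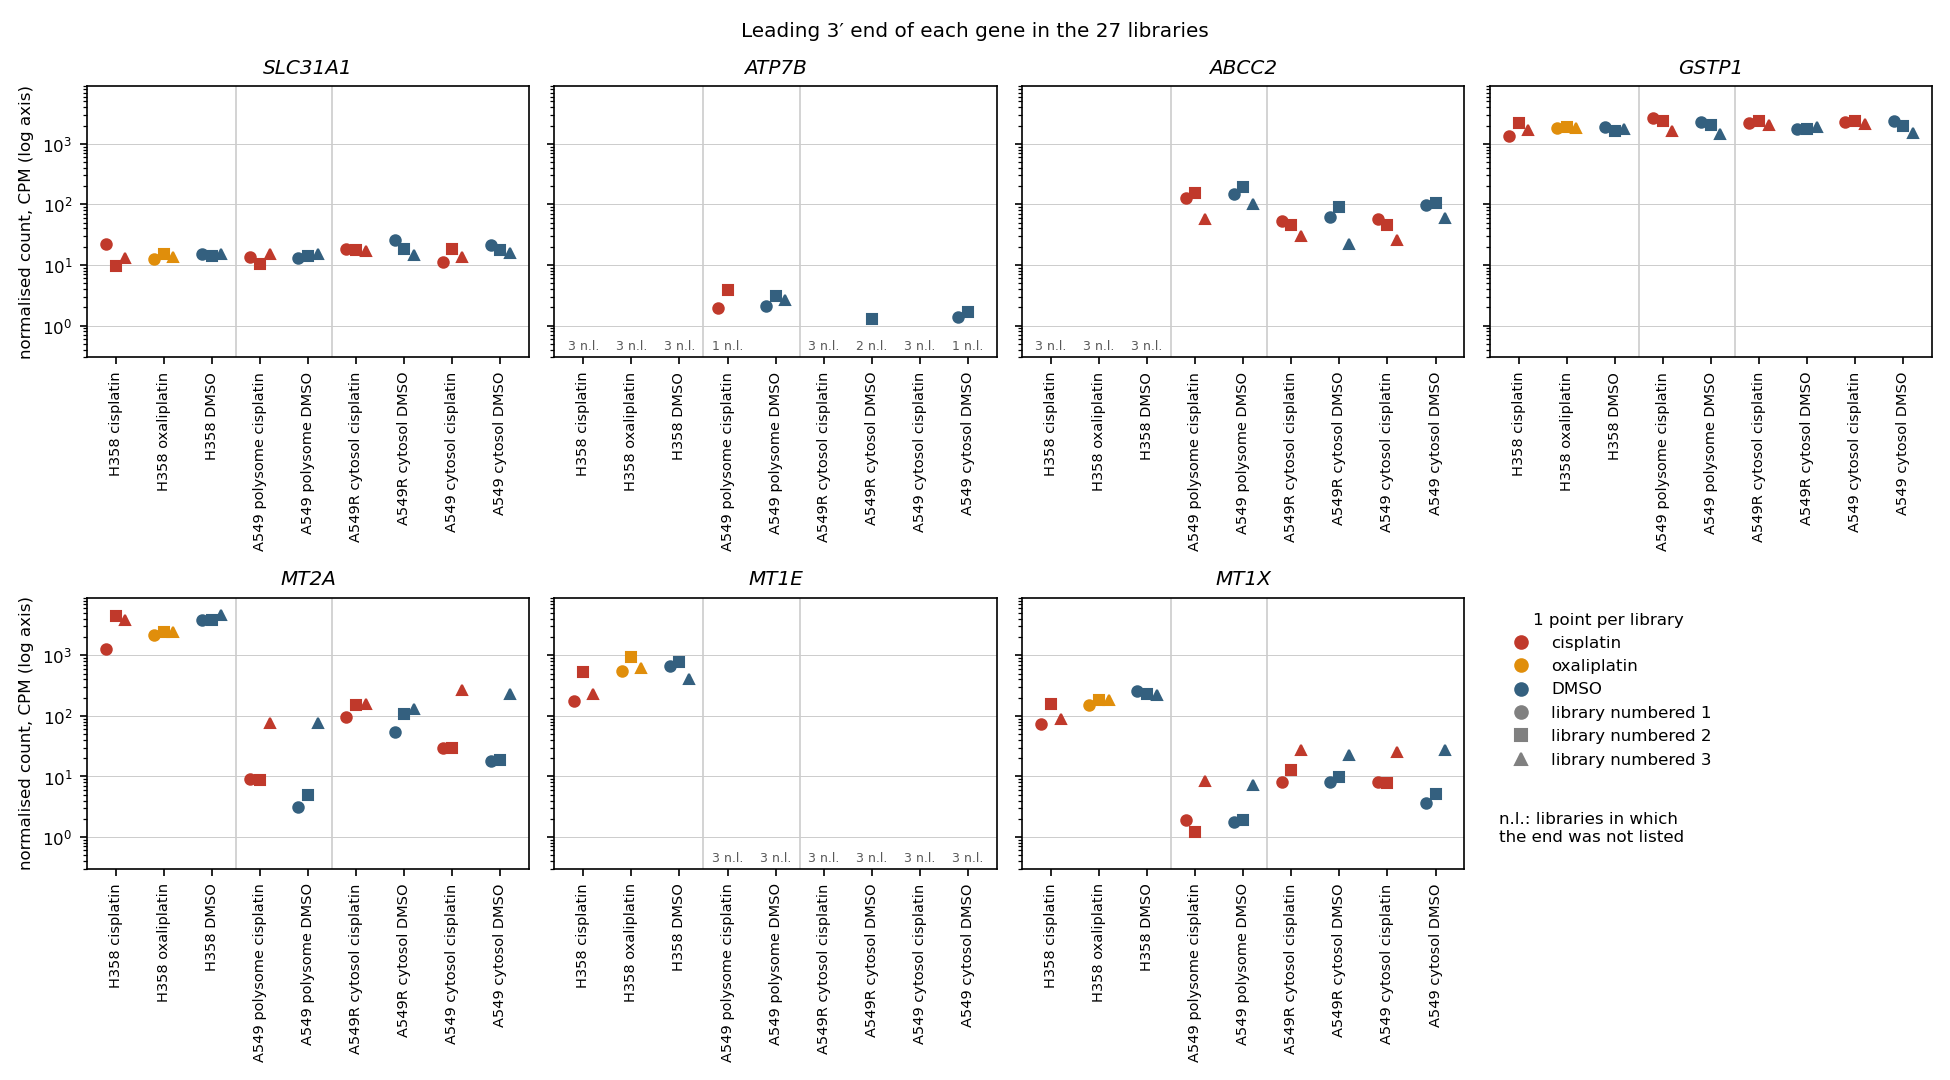
Normalised count (CPM, log axis) of the leading 3′ end of each of the 7 genes in every library, 1 point per library, grouped by cell line, extract and treatment. SLC31A1 and GSTP1 lie on level bands across the 9 groups, MT1E has points only in H358 and ABCC2 only in A549 and A549R, and MT2A is lower in every A549 and A549R library (265 CPM at most) than in every H358 library (1266 CPM at least).

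On the CPM scale of the 10283 peaks in all lists, the leading ends of GSTP1 and SLC31A1 kept nearly the same level throughout. Their group means spanned 0.41 and 0.58 log2 units, and 99.9% and 99.3% of the 10283 peaks spanned as much or more. This evenness belongs to that scale. With CPM over whole library totals, 28 of 46 group means of the members' leading ends moved by more than 1 SD. SLC31A1 end 3 held 42.6% of the counts of its window, against 43.3% at the leading end, and varied more. Its means ran from 9.41 ± 2.46 CPM (SD) in polysome DMSO to 21.7 ± 2.64 CPM in H358 cisplatin. The GSTP1 leading end ranged from 1360 CPM in an H358 cisplatin library to 2657 CPM in a polysome cisplatin library. MT2A and MT1X spanned 8.58 and 6.45 log2 units, which 0.0875% and 0.253% of the peaks reached. The order of the MT2A means, each over 3 libraries with its SD, was H358 DMSO (4076 ± 420 CPM), H358 cisplatin (3192 ± 1701), H358 oxaliplatin (2315 ± 149), A549R cisplatin (135 ± 35.4), A549 cisplatin (108 ± 136), A549R DMSO (97.0 ± 38.1), A549 DMSO (90 ± 124), polysome cisplatin (31.8 ± 39.6) and polysome DMSO (28.1 ± 41.6). Neighbours in this order differed beyond their SDs only between H358 oxaliplatin and A549R cisplatin. In MT1X the H358 libraries lay between 73.9 and 256 CPM and all A549 and A549R libraries between 1.2 and 27.6 CPM. Over the 9 group means the MT2A and MT1X patterns had a Pearson r of 0.99, a description that the step between H358 and the other lines dominates.

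The sequence upstream of the metallothionein genes is shown because the results below turn on these genes moving or not moving together. Both are the 250 bases before the annotated start, 5′ to 3′ on the plus strand, from RefSeq on GRCh38.p14, a build other than that of the peaks. MT2A lies at chr16:56608334-56608583 and MT1X at chr16:56682220-56682469. Capitals mark the core of the metal response element, searched as TGCACNC and TGCGCNC on both strands.
MT2A: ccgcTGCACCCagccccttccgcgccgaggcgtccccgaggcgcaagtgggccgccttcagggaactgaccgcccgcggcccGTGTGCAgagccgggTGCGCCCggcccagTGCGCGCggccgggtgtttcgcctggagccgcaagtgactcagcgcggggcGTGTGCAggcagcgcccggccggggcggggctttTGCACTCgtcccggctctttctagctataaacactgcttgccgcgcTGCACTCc
MT1X: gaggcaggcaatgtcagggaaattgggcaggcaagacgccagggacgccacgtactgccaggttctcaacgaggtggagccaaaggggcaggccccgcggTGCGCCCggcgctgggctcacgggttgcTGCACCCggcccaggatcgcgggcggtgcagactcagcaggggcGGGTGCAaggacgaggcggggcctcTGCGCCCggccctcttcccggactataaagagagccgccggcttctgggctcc
MT2A held 7 matches and MT1X held 4, none overlapping another. Of the 35116 promoters in the table, 24.8% held at least 1 match, 0.37% at least 4 and 0.0313% at least 7. Among the other members, 6 of the 7 genes had an entry in all (not MT1E): ABCC2 and GSTP1 held 1 match each, SLC31A1 held 0 and the 3 ATP7B promoters held 0, 2 and 0. The core of the antioxidant response element, searched as TGACNNNGC on both strands, occurred once each in the GSTP1, MT2A and MT1X windows, against 10.9% of all promoters with at least 1. In GSTP1 it covered bases 58 to 66 before the start. A match describes letters and is no evidence of binding.

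In H358 cells cisplatin lowered MT1X ends 1 and 3 and MT1E end 2 in the fit of all 9 libraries, in which no MT2A, SLC31A1 or GSTP1 end passed. Of 13 measured member ends, 3 fell and 0 rose at an adjusted p under 0.05 (edgeR's quasi-likelihood test with Benjamini-Hochberg adjustment over all 14358 measured peaks), against 26.2% of all measured peaks called and 14.4% called lower. In cultured cells measured in bulk, fewer cells expressing a gene and a lower share of its RNA per cell cannot be told apart. The MT1X leading end, at MT1X end 3, had 73.9, 156 and 90.3 CPM in cisplatin libraries, 153, 185 and 182 CPM in oxaliplatin libraries and 256, 229 and 220 CPM in DMSO libraries. All cisplatin values were below all DMSO values. After cisplatin it stood at 0.413 of its DMSO level, a log2 change of -1.28 ± 0.25 (SE, n = 3 each, adjusted p = 0.000751 by edgeR). MT1X end 1, which begins at 56716337 and lies 1582 bases upstream, had 10.2, 9 and 11.1 CPM in cisplatin libraries, 13.7, 18.3 and 14.8 CPM in oxaliplatin libraries and 27.6, 17.1 and 32.8 CPM in DMSO libraries. It fell by 1.45 on the log2 scale after cisplatin (SE 0.33, adjusted p = 0.00237 by edgeR). Leaving out each of the 9 H358 libraries in turn kept both MT1X calls, with adjusted p at most 0.00694 for end 3 and 0.0187 for end 1.

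The MT1E leading end had 176, 529 and 234 CPM in cisplatin libraries, 553, 921 and 620 CPM in oxaliplatin libraries and 662, 783 and 410 CPM in DMSO libraries. The cisplatin and DMSO groups overlapped, because the second cisplatin library lay above the lowest DMSO library. The log2 change after cisplatin was -1.12 ± 0.33 (SE, adjusted p = 0.0145 by edgeR), a level 0.461 times that in DMSO. It missed the threshold without cisplatin replicate 1 (log2 change -0.83, adjusted p = 0.0742), without DMSO replicate 2 (-0.91, adjusted p = 0.0679) and without cisplatin replicate 3 (-0.95, adjusted p = 0.0698), each by edgeR. MT1E end 1, 1241 bases upstream, held 1.61% of the counts of the window and had a log2 change of -0.53 ± 0.45 (SE, adjusted p = 0.401 by edgeR).

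MT2A did not follow in all libraries. Its leading end had 1266, 4489 and 3820 CPM in cisplatin libraries, 2144, 2417 and 2385 CPM in oxaliplatin libraries and 3893, 3779 and 4557 CPM in DMSO libraries. The first cisplatin library alone lay below the DMSO range, and the same library was the lowest of its group in MT1E and MT1X. The log2 change after cisplatin was -0.48 with a 95% interval from -1.11 to 0.15 (adjusted p = 0.258 by edgeR). The fit of H358 cisplatin and DMSO libraries without the oxaliplatin libraries shifted the median change of the shared peaks by -0.471 on the log2 scale. In that fit 36.4% of 27634 measured peaks were called. There the MT2A leading end stood at -1.01 (adjusted p = 0.000854 by edgeR), MT2A end 2 at -1.27 (adjusted p = 0.0136 by edgeR), the GSTP1 leading end at -0.64 (adjusted p = 0.0184 by edgeR) and SLC31A1 end 3 at -0.18 instead of 0.29, while MT1X end 3 stood at -1.80 and MT1E end 2 at -1.68. Relative to its own median that fit thus leaves the order of the members as it was, with MT1X and MT1E lowest.

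Within a library the counts of MT1X and MT2A can be set against each other without any scaling. The MT1X leading end amounted to 5.84%, 3.47% and 2.36% of the MT2A count in cisplatin libraries, 7.12%, 7.66% and 7.64% in oxaliplatin libraries and 6.58%, 6.06% and 4.83% in DMSO libraries. The ranges of cisplatin and DMSO overlapped, and every oxaliplatin library was above every other. For MT1E the figures were 13.9%, 11.8% and 6.14% in cisplatin libraries, 25.8%, 38.1% and 26% in oxaliplatin libraries and 17%, 20.7% and 8.99% in DMSO libraries. These percentages compare libraries, not amounts of the RNAs, and the counting of metallothionein paralogs, whose sequences are much alike, could split reads between genes, so the values of single paralogs are uncertain.

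After oxaliplatin the pattern differed, with the lowest log2 change among the leading metallothionein ends at MT2A. By edgeR 0 of 13 member ends were called, against 5.32% of all measured peaks, while DESeq2 called 1 and 4 had an unadjusted p under 0.05 in edgeR. The MT2A leading end lay below all DMSO values in each oxaliplatin library, with a log2 change of -0.86 ± 0.30 (SE, adjusted p = 0.103 by edgeR). Oxaliplatin and DMSO libraries of the same number deviated together only loosely. Their deviations correlated at 0.111 to 0.544, against up to 0.231 between different numbers. With the number as a block over all H358 libraries the MT2A leading-end change was -0.87 ± 0.25 (SE, adjusted p = 0.0234 by edgeR). That block also takes in the cisplatin libraries, whose numbers were not taken as paired. MT2A end 2, 467 bases upstream, had 6.66, 6.54 and 7.38 CPM in oxaliplatin libraries and 14.9, 12.7 and 22.4 CPM in DMSO libraries, a log2 change of -1.30 with adjusted p = 0.0538 without the block, 0.00907 with it (edgeR) and 0.0286 by DESeq2. Without cisplatin replicate 1, which enters only the estimate of the spread, both MT2A ends were called (adjusted p = 0.0103 for end 3 and 0.0175 for end 2 by edgeR). Without cisplatin replicate 3 end 2 was called (adjusted p = 0.0494), and without DMSO replicate 2 end 2 and MT1X end 1 were (adjusted p = 0.0389 and 0.0457), by edgeR. With the block 2 of 13 member ends were called, against 15.6% of all measured peaks. The MT1E leading end had a log2 change of 0.11 with a 95% interval from -0.55 to 0.78, and the MT1X leading end one of -0.49 with an interval from -1 to 0.01. All oxaliplatin lists were of the short kind and all other H358 lists of the long kind, and the part of list kind in these values was not tested.

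The pair of drugs was set side by side at the same dose, as 1 comparison of compounds. Cisplatin libraries were lower than oxaliplatin libraries at 2 of 13 member ends, against 19.2% of all measured peaks called in either direction and 9.44% called lower. MT1E end 2 stood at -1.23 ± 0.33 (SE, adjusted p = 0.0111 by edgeR) and MT1X end 3 at -0.78 ± 0.25 (SE, adjusted p = 0.031 by edgeR), both as log2 of cisplatin over oxaliplatin. Neither call held in every fit that left out 1 library: without cisplatin replicate 1, MT1E stood at -0.95 (adjusted p = 0.0601) and MT1X at -0.58 (adjusted p = 0.15), and without oxaliplatin replicate 2 they stood at -0.95 (adjusted p = 0.0594) and -0.70 (adjusted p = 0.0828), by edgeR. Without cisplatin replicate 3 the values were -1.06 (adjusted p = 0.0543) for MT1E and -0.68 (adjusted p = 0.113) for MT1X, and without oxaliplatin replicate 3 MT1X stood at -0.73 (adjusted p = 0.0973), by edgeR. The MT2A leading end pointed the other way, at 0.39 with a 95% interval from -0.24 to 1.02 (adjusted p = 0.403 by edgeR), and without cisplatin replicate 1 at 0.77 (adjusted p = 0.0183 by edgeR). The intervals of the leading ends of SLC31A1 (-0.56 to 0.78) and GSTP1 (-0.59 to 0.30) both hold 0, which does not show that the drugs act alike on them. The comparisons with DMSO share the DMSO libraries.

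**Figure D2:**
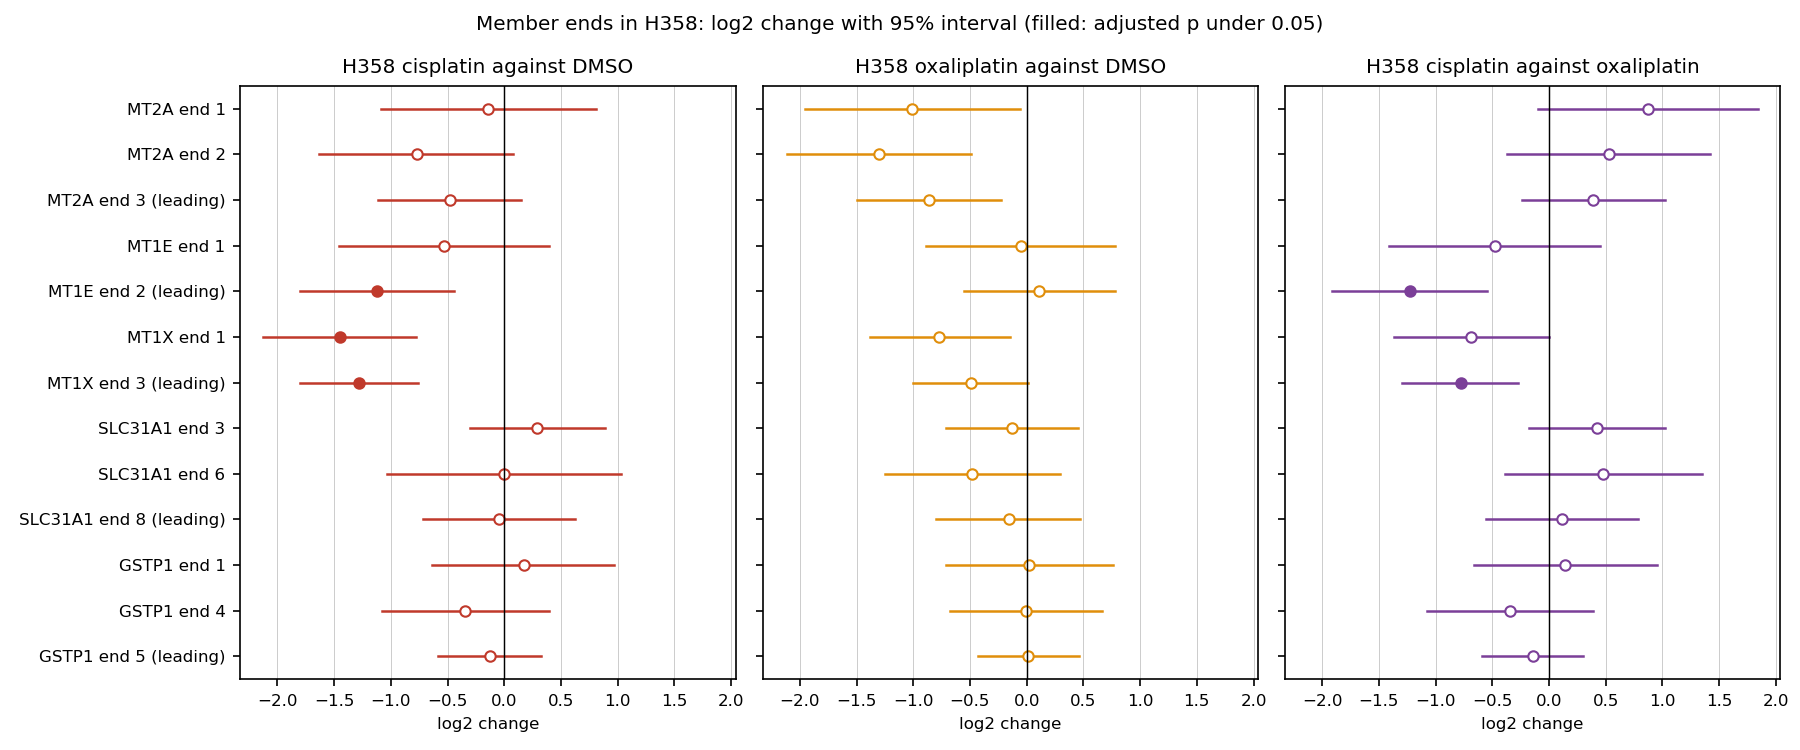
Log2 change of each of the 13 measured member ends in H358, with 95% interval (edgeR, n = 3 libraries a group), for cisplatin against DMSO, oxaliplatin against DMSO and cisplatin against oxaliplatin. Filled points have an adjusted p under 0.05: MT1E end 2 and MT1X ends 1 and 3 in the first panel, none in the second, and MT1E end 2 and MT1X end 3 in the third, while SLC31A1 and GSTP1 ends lie between -0.48 and 0.48 in all 3.

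Between MT2A and MT1X, a stretch that holds the MT1E window, RefSeq places 12 genes or pseudogenes named MT. Apart from the MT1E ends, 16 merged peaks lay there, 13 of them on the plus strand. They are given by position, since no annotation of their build was used, and 2 of them were measured in H358. The peak at chromosome 16, 56670786 to 56670992, plus strand, listed in H358 libraries and in no other, had 2.86, 4.84 and 3.71 CPM in cisplatin libraries, 6.01, 9.15 and 7.77 CPM in oxaliplatin libraries and 8.15, 7.79 and 7.56 CPM in DMSO libraries. After cisplatin its log2 change was -1.22 ± 0.38 (SE, adjusted p = 0.0197 by edgeR), close to the values of MT1X and MT1E, and against oxaliplatin it was -1.13 (adjusted p = 0.0405 by edgeR). The peak at 56692985 to 56693223 had a log2 change of -0.04 after cisplatin, with a 95% interval from -0.94 to 0.87. These peaks were picked for their place after the values of the members were known.

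In A549 the libraries numbered 3 stood apart in the metallothioneins. MT2A had 9.05, 8.87 and 77.6 CPM in polysome cisplatin libraries and 3.16, 5.00 and 76.1 CPM in polysome DMSO libraries. In the cytosol it had 29.9, 29.6 and 265 CPM in A549 cisplatin libraries and 18.2, 18.7 and 233 CPM in A549 DMSO libraries. The library numbered 3 was 8.66 times (polysome cisplatin), 18.7 times (polysome DMSO), 8.92 times (cytosol cisplatin) and 12.6 times (cytosol DMSO) the mean of the other 2. Ranked by that ratio among 10283 peaks, MT2A came 5th, 1st, 4th and 2nd in these groups. In A549R it was 1.30 times in cisplatin and 1.57 times in DMSO. MT1X in the library numbered 3 stood at 2.59 to 6.34 times the mean of the other 2 in all 6 A549 and A549R groups, where it had 8.02, 12.6 and 27.1 CPM in A549R cisplatin libraries and 7.97, 9.67 and 22.9 CPM in A549R DMSO libraries. ABCC2 was lower in the library numbered 3 in all 6 groups, at 0.294 to 0.616 of the mean of the other 2. What sets these libraries apart was not tested.

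**Figure D3:**
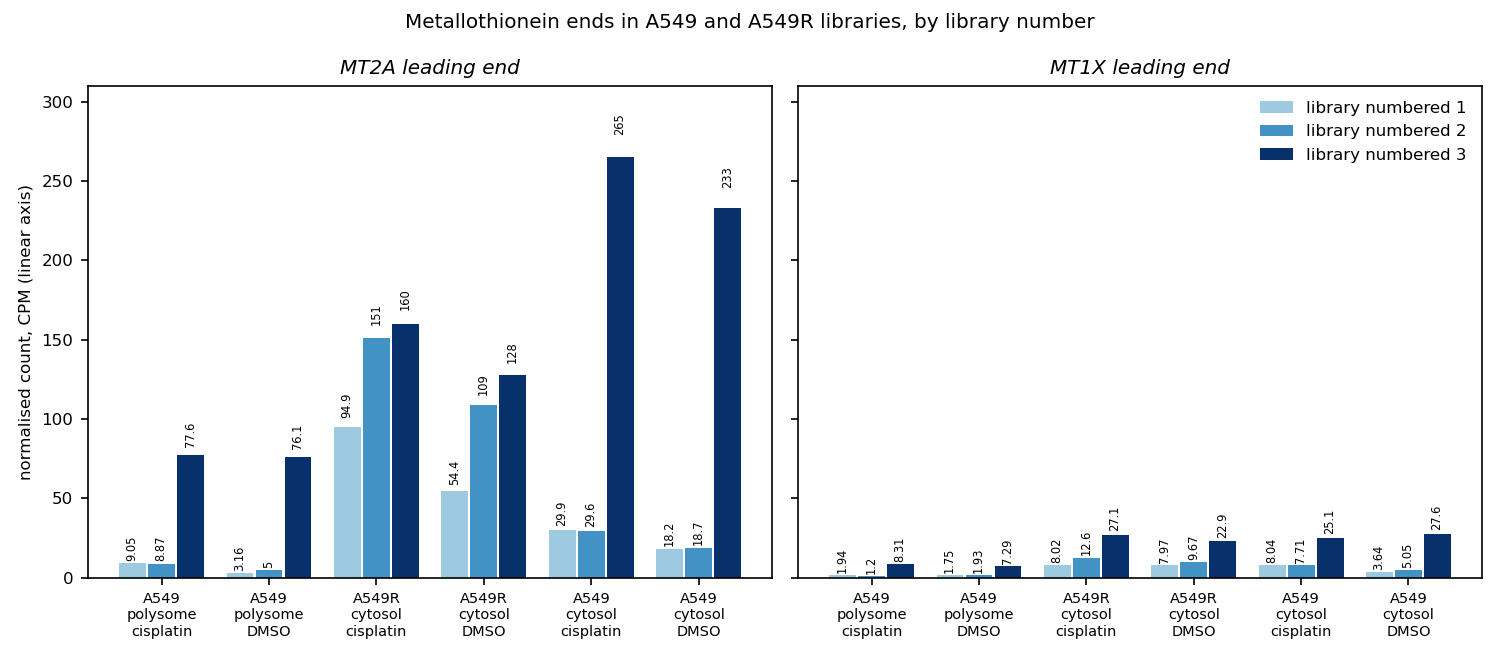
Normalised count (CPM, linear axis from 0) of the MT2A and MT1X leading ends in each A549 and A549R library, with 1 bar per library and colours for the library number. In A549 the bar of library 3 stands far above the other 2 at MT2A, at 77.6, 76.1, 265 and 233 CPM from left to right, while the A549R bars lie between 54.4 and 160 CPM.

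Cisplatin lowered ABCC2 ends in A549 cytosol in the fit that pairs libraries by number, and moved no metallothionein end past the threshold. The ABCC2 leading end, end 25 of 25, had 58.3, 46.4 and 25.7 CPM in cisplatin libraries and 95.9, 105 and 59.7 CPM in DMSO libraries, so that the groups did not overlap. End 8, which begins at 101556779 and lies 55189 bases upstream, had 33.6, 20.1 and 17.7 CPM in cisplatin libraries and 54.1, 51.1 and 39.2 CPM in DMSO libraries. End 19, which begins at 101590423, had 18.4, 9.33 and 6.43 CPM in cisplatin libraries and 29.6, 25.5 and 13.8 CPM in DMSO libraries. Without the block edgeR called 0 of 9 member ends, against 7.23% of 16439 measured peaks, while DESeq2 called 1 and 2 had an unadjusted p under 0.05 in edgeR. The numbers pair these libraries by the correlation of their deviations. With the block all 3 ABCC2 ends were called, against 11.9% of all measured peaks. In the cytosol fit 1 block takes in all A549 and A549R libraries. The numbers of A549 cisplatin libraries were not taken as paired with those of A549R cisplatin or A549R DMSO libraries (lowest correlation -0.00313 and 0.091). The log2 changes with the block were -0.97 ± 0.22 at end 25 (adjusted p = 0.0153), -0.97 ± 0.25 at end 8 (adjusted p = 0.0268) and -0.99 ± 0.27 at end 19 (adjusted p = 0.0302), each with its SE by edgeR. Without the block they were -0.94 (adjusted p = 0.166), -0.96 (adjusted p = 0.0691) and -0.97 (adjusted p = 0.218) by edgeR. End 8 passed without the block when A549 cisplatin replicate 1 or A549R DMSO replicate 3 was left out (adjusted p = 0.0282 and 0.027 by edgeR).

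In A549R cytosol the upstream ABCC2 end 8 moved the same way. It had 14.2, 16.8 and 16.2 CPM in cisplatin libraries and 33.7, 44.3 and 16.8 CPM in DMSO libraries, where the lowest DMSO value met the cisplatin range. The leading end had 53.6, 45.7 and 30.6 CPM in cisplatin libraries and 61.9, 89.3 and 22.2 CPM in DMSO libraries, with overlapping groups. By edgeR 0 of 9 member ends were called without the block, against 4.54% of all measured peaks, while DESeq2 called 1 and 2 had an unadjusted p under 0.05 in edgeR. With the same block over both lines 1 was called, against 9.44%, namely end 8 at -0.92 ± 0.27 (SE, adjusted p = 0.0496 by edgeR). End 25 stood at -0.27 ± 0.23 with the block (SE, adjusted p = 0.484 by edgeR). Without A549R DMSO replicate 3, end 8 stood at -1.25 without the block (adjusted p = 0.0236 by edgeR). A direct test of the A549R response minus the A549 response called 0 of 9 member ends and 0.0% of all measured peaks by edgeR. DESeq2 called 0 as well, and 1 member end had an unadjusted p under 0.05 in edgeR. For the ABCC2 leading end that difference was 0.56 with a 95% interval from -0.64 to 1.77.

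Fewer ABCC2 ends were listed after cisplatin. A549 cytosol libraries listed 9, 10 and 4 of the 25 ends after cisplatin and 15, 18 and 9 after DMSO. A549R libraries listed 13, 6 and 6 after cisplatin and 20, 17 and 6 after DMSO, and polysome libraries 10, 14 and 5 after cisplatin and 16, 21 and 11 after DMSO. The number was lower in the cisplatin library of the same number in each pair except A549R number 3. Whole lists were shorter after cisplatin too, except in the A549R and polysome pairs numbered 3. A549 cytosol lists held 42968, 48095 and 37673 peaks after cisplatin and 50565, 50835 and 37968 after DMSO. A549R lists held 103214, 92154 and 91128 after cisplatin and 110897, 107251 and 58734 after DMSO. Polysome lists held 90112, 124560 and 46061 after cisplatin and 92573, 127418 and 37980 after DMSO. Total counts per library overlapped between the treatments in each of the 3 settings, and listing depends on the level of the gene, so these numbers are no measure of end choice. End 6, which begins at 101555363, had 3.45, 3.85 and 2.25 CPM in A549 cisplatin libraries and 9.09, 10.7 and 13.1 CPM in A549 DMSO libraries. Fitted on the A549 cytosol libraries alone, where it could be measured, it fell by 1.68 on the log2 scale (SE 0.32, adjusted p = 0.0217 by edgeR, against 4.73% of 22161 peaks called).

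**Figure D4:**
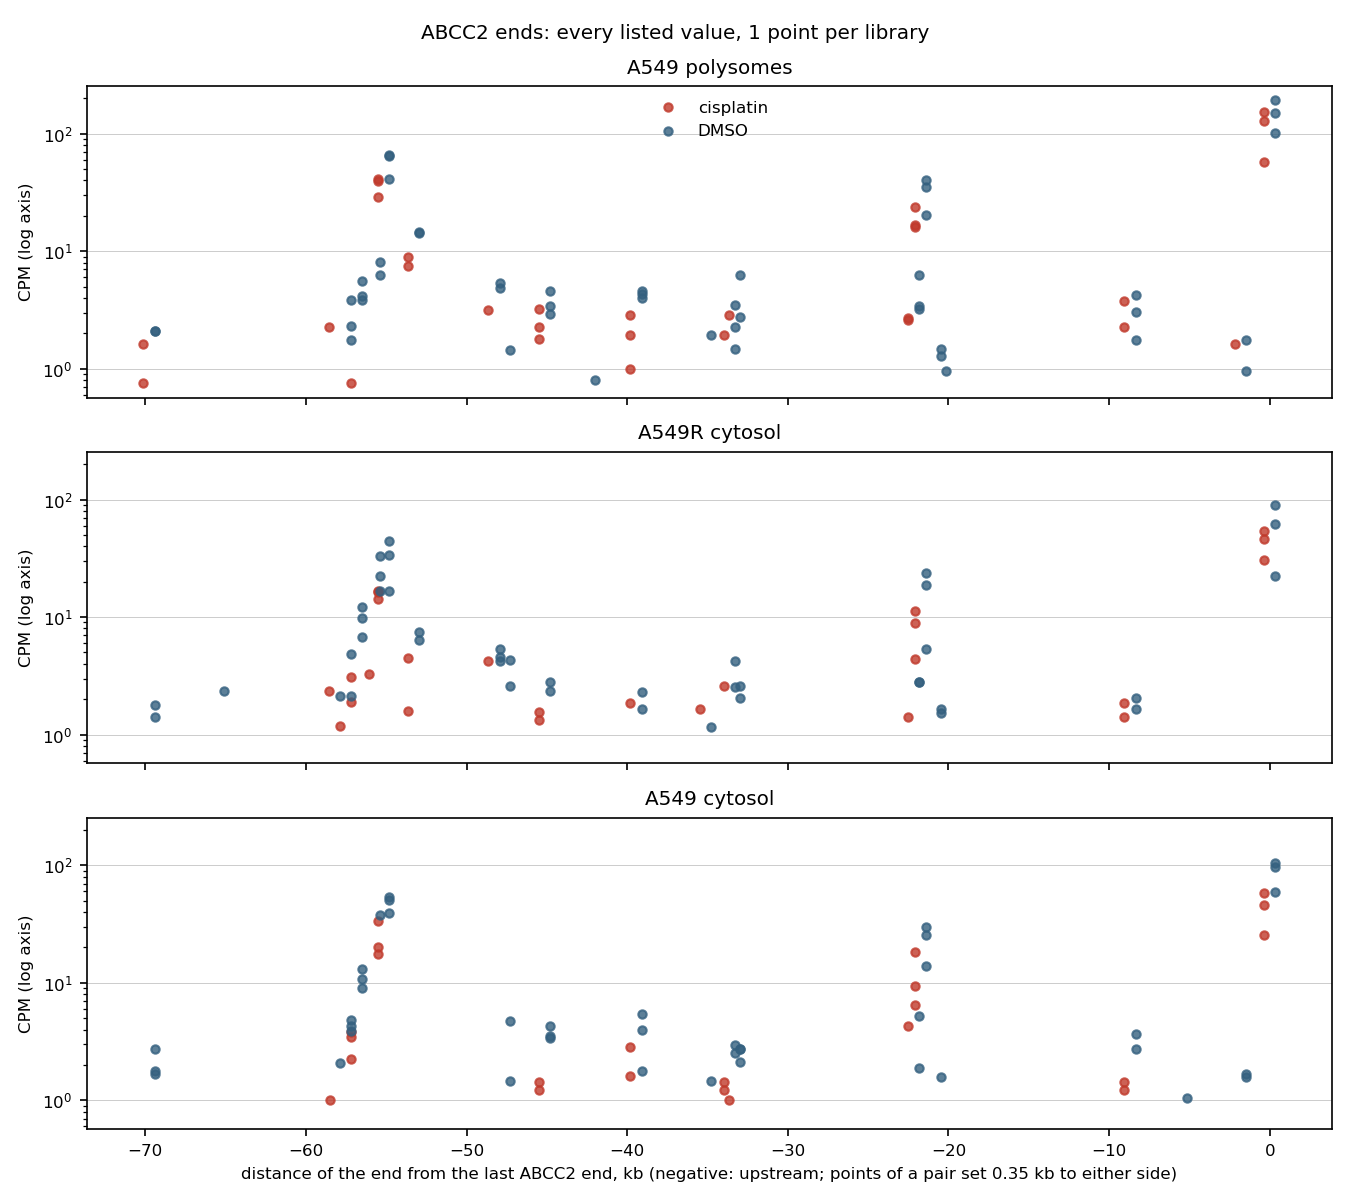
Normalised count (CPM, log axis) of every listed ABCC2 end in A549 polysomes, A549R cytosol and A549 cytosol against its distance in kb from the last ABCC2 end, 1 point per library, cisplatin points drawn left of DMSO points. The ends 55 kb and 22 kb upstream (ends 8 and 19) and the last end carry the most counts, and fewer ends have cisplatin than DMSO points in 8 of 9 same-numbered pairs of libraries. Whole peak lists were shorter after cisplatin as well, except in the A549R and polysome pairs numbered 3.

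Over measured ends of all libraries, with the block or without it, SLC31A1, GSTP1 and the metallothioneins passed no edgeR test of cisplatin in either cytosol. The SLC31A1 leading end had log2 changes of -0.25 (95% interval -0.80 to 0.31) in A549 and -0.12 (-0.67 to 0.44) in A549R. GSTP1 had 2322, 2424 and 2113 CPM in A549 cisplatin libraries, 2406, 1940 and 1518 CPM in A549 DMSO libraries, 2202, 2340 and 2025 CPM in A549R cisplatin libraries and 1749, 1762 and 1890 CPM in A549R DMSO libraries. All A549R cisplatin values lay above all A549R DMSO values, with a log2 change of 0.35 ± 0.16 (SE, adjusted p = 0.214 by edgeR). With all cytosol libraries numbered 3 left out, a choice made after values were seen, it was 0.43 ± 0.13 (SE, adjusted p = 0.0331 by edgeR), one of 3 member ends then called beside ABCC2 ends 8 and 19, against 17.2% of all measured peaks. In A549 over all libraries it was 0.29 ± 0.16 (SE, adjusted p = 0.287 by edgeR). MT2A had log2 changes of 0.35 (95% interval -1.58 to 2.29) in A549 and 0.57 (-1.37 to 2.5) in A549R, intervals that the libraries numbered 3 widen. In same-numbered pairs the cisplatin level of MT2A was 1.64, 1.58 and 1.14 times the DMSO level in A549 and 1.75, 1.39 and 1.25 times in A549R, thus higher in 6 of 6 pairs, and in polysomes it was 2.87, 1.77 and 1.02 times. Of the 10283 peaks, 93.4%, 90.1% and 61.0% had a ratio as low or lower in A549. The figures were 92.3%, 77.6% and 71.4% in A549R and 98.6%, 94.9% and 47.2% in polysomes, so in several pairs the MT2A ratio was not unusual.

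Between A549R and A549 no member end passed the threshold over all 3 libraries, with the block or without it. In DMSO edgeR called 0 of 9 member ends, against 2.1% of 16439 measured peaks, and DESeq2 called 0, with 1 at an unadjusted p under 0.05 in edgeR. In cisplatin it called 0 of 9, against 1.64%, and DESeq2 called 0, with 0 at an unadjusted p under 0.05 in edgeR. MT2A had 94.9, 151 and 160 CPM in A549R cisplatin libraries, against 29.9, 29.6 and 265 CPM in A549 cisplatin libraries, and 54.4, 109 and 128 CPM in A549R DMSO libraries, against 18.2, 18.7 and 233 CPM in A549 DMSO libraries. Libraries 1 and 2 of A549R were 2.99 and 5.80 times those of A549 in DMSO and 3.18 and 5.10 times in cisplatin, while library 3 was 0.548 and 0.604 times. The log2 difference over all libraries was 0.10 ± 0.91 (SE, adjusted p = 0.977) in DMSO and 0.31 ± 0.90 (SE, adjusted p = 0.914) in cisplatin by edgeR. With the A549 libraries numbered 3 left out, a choice made after their values were seen, it was 2.35 ± 0.35 (SE, adjusted p = 0.0017) in DMSO and 2.18 ± 0.34 (SE, adjusted p = 0.00327) in cisplatin by edgeR, against 5.22% and 3.67% of all measured peaks called. The MT2A difference between the lines therefore rests on how library 3 of A549 is treated. The SLC31A1 leading end differed by 0.15 (95% interval -0.41 to 0.70) in DMSO and the ABCC2 leading end by -0.57 (-1.42 to 0.27). The numbers pair these DMSO libraries, and ABCC2 was lower in A549R in 3 of 3 pairs, at 0.645, 0.849 and 0.372 times A549. In these pairs 10.3%, 31.0% and 2.71% of the 10283 peaks had a ratio as low. With the block the difference of the ABCC2 leading end was -0.68 (95% interval -1.16 to -0.20, unadjusted p = 0.00937, adjusted p = 0.0975 by edgeR) and that of end 8 was -0.62 (-1.17 to -0.07, adjusted p = 0.181 by edgeR). All A549R lists were of the long kind and all A549 cytosol lists of the short kind, and the part of list kind in these values was not tested.

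In heavy polysomes cisplatin changed no member end past the threshold. By edgeR 0 of 13 were called, against 0.704% of 21585 measured peaks, and DESeq2 called 0, with 3 at an unadjusted p under 0.05 in edgeR. These 3 were ABCC2 ends. End 8 had 39.4, 41.3 and 28.7 CPM in cisplatin libraries and 66.0, 64.5 and 41.4 CPM in DMSO libraries, a log2 change of -0.58 ± 0.25 (SE, adjusted p = 0.299 by edgeR). Its value with the block was -0.57 ± 0.16 (SE, adjusted p = 0.0553 by edgeR), and with the block 0 member ends were called, against 9.41% of all measured peaks. End 14, which begins at 101572771, had 1.94, 2.86 and 0.989 CPM in cisplatin libraries and 4.56, 4.03 and 4.37 CPM in DMSO libraries, a log2 change of -1.04 ± 0.40 (SE, adjusted p = 0.251 by edgeR). The leading end had 128, 153 and 57.4 CPM in cisplatin libraries and 151, 193 and 102 CPM in DMSO libraries.

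Set against the cytosol, polysomes had lower levels of the MT2A and MT1X leading ends and a higher level of the ABCC2 leading end in every pair of libraries with the same number. The MT2A level in polysomes was 0.303, 0.3 and 0.293 times that in cytosol in cisplatin and 0.174, 0.267 and 0.326 times in DMSO. In single pairs, 1.19% to 6.52% of the 10283 peaks had a ratio as low. MT1X stood at 0.241, 0.156 and 0.331 times in cisplatin and at 0.482, 0.383 and 0.265 times in DMSO. Its polysome values rest on 6, 8 and 42 counts in cisplatin and 5, 12 and 25 in DMSO, several of them near the listing limit. In single pairs 0.875% to 19.1% of the peaks had a ratio as low as MT1X. The ABCC2 leading end stood at 2.2, 3.3 and 2.23 times in cisplatin and at 1.57, 1.83 and 1.70 times in DMSO. For that end 70.0% to 95.1% of the peaks had a ratio as low or lower. Not every ABCC2 end went that way. End 6 had 3.86, 4.19 and 5.54 CPM in polysomes and 9.09, 10.7 and 13.1 CPM in cytosol in DMSO, and end 19 after cisplatin had 16.8 CPM in polysomes and 18.4 CPM in cytosol in the pair numbered 1. These are CPM ratios between fractions scaled to the same total, so they describe shares of each fraction and not amounts of RNA.

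The tests depended on the use of a block. In this fit the library number had separate effects within polysomes and within cytosol. It matched cisplatin with DMSO libraries of a fraction, not polysome with cytosol libraries. Spread between the numbers of a fraction therefore does not enter the SE with the block. Between polysomes and cytosol the numbers mark pairs only loosely. The lowest same-number correlation of deviations was 0.168 in cisplatin and 0.189 in DMSO, against up to 0.429 and 0.395 between different numbers. Without the block edgeR called 1 of 10 member ends in DMSO, against 39.7% of 17308 measured peaks, and 3 of 10 in cisplatin, against 43.3%. With the block it called 5 of 10 in DMSO, against 52.7%, and 7 of 10 in cisplatin, against 56.0%. MT2A stood at -1.98 ± 0.22 in cisplatin (adjusted p = 1.33e-05) and -1.95 ± 0.23 in DMSO (adjusted p = 2.39e-05) with the block, and at -1.92 (adjusted p = 0.264) and -1.77 (adjusted p = 0.32) without it, by edgeR. Without the block and without A549 cytosol DMSO replicate 3 its value in DMSO was 0.52, and without polysome DMSO replicate 3 it was -4.55 (adjusted p = 0.0399 by edgeR). In cisplatin it was -0.03 without A549 cytosol cisplatin replicate 3. MT1X stood at -2.19 ± 0.33 in cisplatin (adjusted p = 0.000126) and -1.65 ± 0.34 in DMSO (adjusted p = 0.00148) with the block, and at -1.96 (adjusted p = 0.0871) and -1.80 (adjusted p = 0.135) without it, by edgeR. In cisplatin it passed without the block when cytosol DMSO replicate 3 or polysome cisplatin replicate 3 was left out (adjusted p = 0.043 and 0.0232 by edgeR).

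The ABCC2 leading end was higher in polysomes by 1.17 ± 0.16 in cisplatin (adjusted p = 5.46e-05) and 0.64 ± 0.15 in DMSO (adjusted p = 0.00341) with the block, on the log2 scale by edgeR. Without it the values were 1.2 (adjusted p = 0.0172) and 0.64 (adjusted p = 0.172), and the cisplatin call was lost without A549 cytosol cisplatin replicate 3 (adjusted p = 0.0672) or polysome cisplatin replicate 2 (adjusted p = 0.0621). ABCC2 ends 8 and 19 were higher by 0.48 (adjusted p = 0.027) and 0.68 (adjusted p = 0.0263) in cisplatin with the block by edgeR, and without it both passed only when cytosol cisplatin replicate 1 was left out (adjusted p = 0.0378 and 0.047). SLC31A1 end 3 was lower in polysomes after both treatments and end 6 after cisplatin. End 3, which begins at 116023133 and lies 2859 bases before the leading end, had 9.05, 7.52 and 14.4 CPM in polysomes and 14.1, 17.8 and 19 CPM in cytosol after cisplatin, with a log2 difference of -0.94 ± 0.22 with the block (SE, adjusted p = 0.00325) and -0.88 without it (adjusted p = 0.0282) by edgeR. In DMSO it stood at -0.85 with the block (adjusted p = 0.00749) and at -0.82 without it (adjusted p = 0.0457), and 8 of the 12 fits that left out 1 library lost the call without it. SLC31A1 end 6, which begins at 116025342, was lower in cisplatin by edgeR, at -1.04 ± 0.30 without the block (SE, adjusted p = 0.0141). In DMSO end 6 stood at -0.54 without the block (adjusted p = 0.233) and at -0.64 with it (adjusted p = 0.101) by edgeR. In cisplatin the end 3 call was lost without A549 cytosol cisplatin replicate 2 or 3 or polysome cisplatin replicate 1 or 2 (adjusted p = 0.0814 to 0.167 by edgeR), and the end 6 call without cytosol or polysome cisplatin replicate 1 (adjusted p = 0.0505 and 0.0601 by edgeR). The SLC31A1 leading end was called in neither treatment, at -0.34 ± 0.26 in cisplatin (adjusted p = 0.305) and -0.50 ± 0.26 in DMSO (adjusted p = 0.14) without the block. GSTP1 end 1, which begins at 67351928 and held 0.208% of the counts of its window, was lower in DMSO with the block (-0.90, adjusted p = 0.0321). Without the block it stood at -0.93 (adjusted p = 0.0507 by edgeR) and passed in 3 of the 12 fits that left out 1 library, while the GSTP1 leading end passed no test.

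Whether cisplatin changed the polysome share was tested as the polysome response minus the cytosol response. By edgeR 0 of 10 member ends and 0.0% of all measured peaks were called. DESeq2 called 0 as well, and no member end had an unadjusted p under 0.05 in edgeR without the block. With the block 0 were called and 1 had an unadjusted p under 0.05. That was the ABCC2 leading end, at 0.52 with a 95% interval from 0.05 to 1 (unadjusted p = 0.032, adjusted p = 1.0 by edgeR), and at 0.56 with an interval from -0.53 to 1.66 without the block. For MT2A the interval ran from -0.75 to 0.69 with the block and from -4.18 to 3.86 without it. Among the polysome libraries 4 of 6 had the longer kind of list and all cytosol libraries of A549 the shorter, and its part in these values was not tested.

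**Figure D5:**
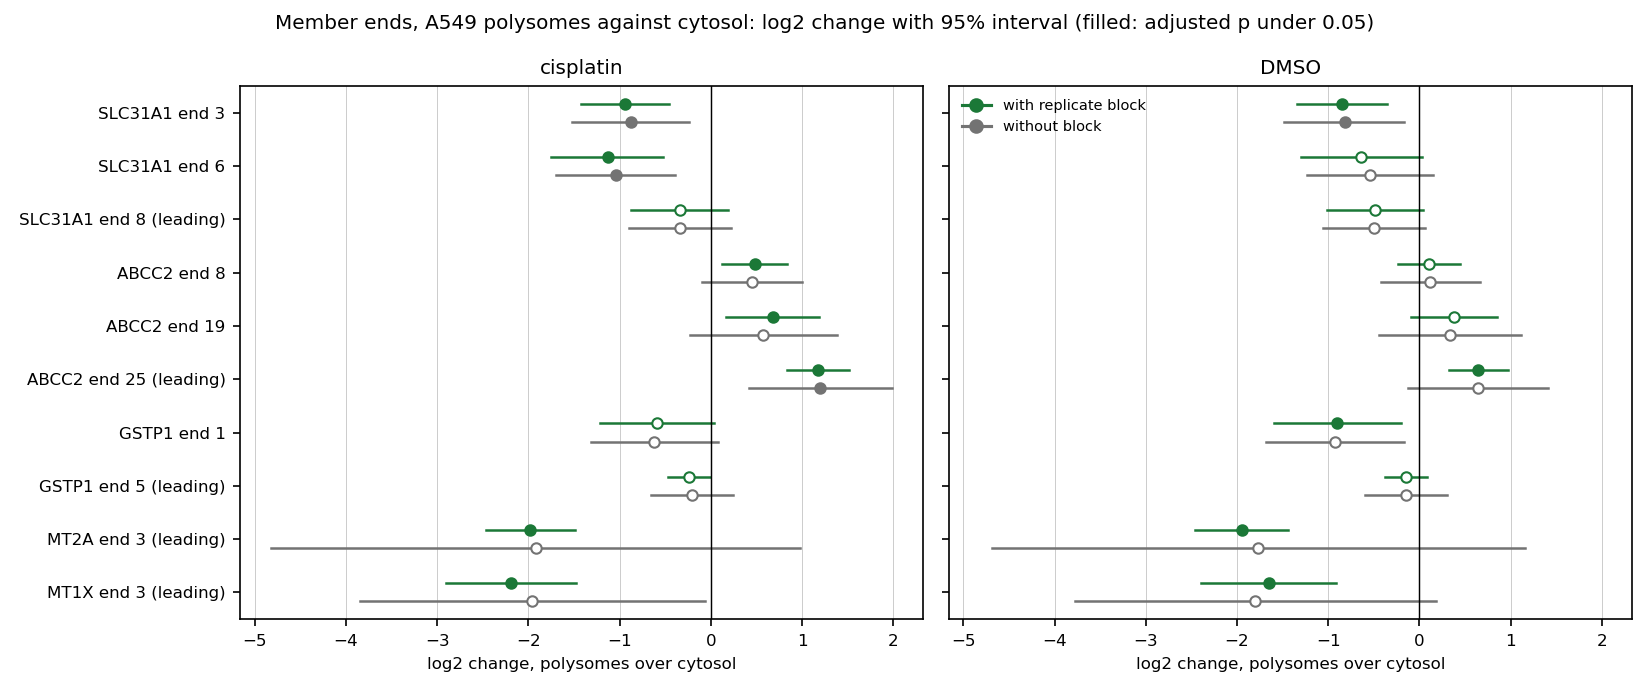
Log2 change of 10 member ends in A549 polysomes over cytosol with 95% interval, in cisplatin (left) and DMSO (right), with the library number as a block within each fraction (green) and without it (grey), n = 3 libraries a group. With that block the spread between library numbers does not enter the interval. MT2A and MT1X lie between -2.19 and -1.65 in both panels and their intervals are narrower with the block, the ABCC2 leading end lies above 0, and SLC31A1 ends lie below 0, filled only for end 3 and, in cisplatin, end 6.

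The share of a gene's counts at each end was compared within genes whose ends were listed in every library of both groups. Of 97 such tests, 20 (20.6%) had groups that did not overlap and an exact two-sided permutation p of 0.1. That is the smallest p that 3 libraries against 3 allow, and groups without any difference separate fully with this probability. The smallest adjusted p over the 97 was 0.485, so no test passed. Shares within a gene have a fixed sum, so the 97 tests are not independent. The same count over the ends of all genes is not given here, so 20.6% has no background. The ABCC2 and SLC31A1 values below were picked from the 20. The ABCC2 leading end held 63.9% ± 4.01 of the compared counts in A549R cisplatin and 53.6% ± 3.42 in A549R DMSO (SD, n = 3 each). In polysomes it held 58.3% ± 4.21 in DMSO, against 47.6% ± 3.59 in cytosol DMSO. The SLC31A1 leading end held 38.8% ± 5.88 in A549 cytosol cisplatin and 48.3% ± 3.01 in A549 cytosol DMSO. In H358 SLC31A1 end 3 held 52.7% ± 4.01 in cisplatin and 46.4% ± 1.21 in DMSO. GSTP1 and MT2A ended almost only at the leading end, which took 99.2% and 98.5% of all counts of their windows.

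Outside the windows, the peaks whose 9 group means followed the leading ends most closely are named by position, with the Pearson r over group means of log2 CPM among 10283 peaks. For MT2A they began at 155112273 on chromosome 1 (r = 0.994) and at 105235682 on chromosome 14 (r = 0.994), both on the minus strand. For MT1X they began at 33665265 on chromosome 6 and 55652235 on chromosome 19, both on the minus strand and with r = 0.993. GSTP1 was matched by peaks that began at 122161736 on chromosome 5 (r = 0.989) and 101915410 on chromosome 9 (r = 0.981), and SLC31A1 by those at 73609066 on chromosome 7 (r = 0.974) and 46710301 on chromosome 21 (r = 0.962), all on the plus strand. All points share their libraries and depth, and such values carry no test.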

How the data were processed

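Libraries were made from fragmented poly(A)+ RNA primed with anchored oligo-dT, amplified by 16 PCR cycles and sequenced as single-end reads of 50 bases, per the labels' protocols. Each library has a deposited peak list in which the authors give a position, a strand and a whole-number read count for every peak, without normalization. Bowtie2 2.2.5, SAMtools 1.1 and bedtools 2.17.0 are named per the submitters' processing notes, which also name the mouse build mm9, whereas the positions fit human hg19. How peaks were called and filtered is not given in the sources used here, and PCR copies cannot be told from separate molecules.

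Peaks of all lists on the same strand were merged where they shared 1 base or more with Python 3.11.15 and pandas 2.3.3, and a library's value is the sum of its counts. edgeR 4.0.16 in R 4.3.3 fitted TMM-scaled counts of the measured peaks by quasi-likelihood, separately for H358 (14358 peaks), cytosol (16439), polysomes (21585) and polysomes with cytosol (17308), without a block, and an adjusted p under 0.05 was a call. DESeq2 1.42.0 and the other alternatives are given at the end. The tests were tested on simulated data. CPM levels use the TMM-scaled total of the 10283 peaks in all lists. The members and lists were chosen with earlier results of these data known. All 7 genes are named, each by its leading end and every other measured end. Other genes of the pathway and markers of cell types, which need an annotation of the files' build, were not analysed here.

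Same-numbered libraries were taken as paired where the correlation of their deviations from group means was over 0.1 in all 3 pairs. It was 0.111 to 0.544 between H358 oxaliplatin and DMSO, 0.295 to 0.471 and 0.144 to 0.295 between cisplatin and DMSO in A549 and A549R cytosol, 0.424 to 0.514 in polysomes, 0.115 to 0.209 between A549R and A549 in DMSO, 0.168 to 0.551 between polysomes and cytosol in cisplatin and 0.189 to 0.540 in DMSO. The lowest value was 0.0261 between H358 cisplatin and DMSO, -0.0925 between cisplatin and oxaliplatin and -0.00313 between A549R and A549 in cisplatin, which were not taken as paired. Between libraries of different numbers the highest value was 0.231 for H358 oxaliplatin and DMSO and 0.429 and 0.395 for polysomes and cytosol in cisplatin and DMSO, above the lowest same-number value of each, so a number marks its pair only loosely there.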

Additional observations from a re-analysis of the deposited data

Results flagged for a closer look

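SLC31A1 end 6 was the member end at which every library of one line moved one way after cisplatin and every library of another the opposite way. In A549R cytosol it had 4.25, 4.54 and 4.36 CPM in cisplatin libraries and 5.16, 6.87 and 6.73 CPM in DMSO libraries. In A549 cytosol it had 6.60, 4.46 and 5.47 CPM in cisplatin libraries and 3.87, 3.37 and 4.59 CPM in DMSO libraries. The direction is that of each cisplatin library against the mean of the DMSO libraries of its line. The A549 groups overlapped, since cisplatin library 2 lay below DMSO library 3. These values rest on only 13 to 23 counts a library in A549 and 10 to 27 in A549R. The lists of A549 and A549R were of different kinds. The mean log2 change in A549 exceeded that in A549R by 0.98. The test of the difference itself, A549R minus A549, gave -0.97 ± 0.38 (SE, unadjusted p = 0.0232, adjusted p = 1.0 by edgeR), so it did not pass.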

How the results depend on the processing

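With the library number as a block, calls among member ends became 2 for H358 oxaliplatin against DMSO, 3 and 1 for cisplatin in A549 and A549R cytosol, and 5 in DMSO and 7 in cisplatin for polysomes against cytosol, and stayed at the same number for every other comparison. With 1 block shared by polysomes and cytosol the last pair of counts was again 5 and 7. Where libraries share only a number, in H358 cisplatin against DMSO and against oxaliplatin, the block called 3 and 2, as without it. Fitting the compared groups alone gave 6 calls for H358 cisplatin, 2 for oxaliplatin, 1 for A549 cisplatin and 2 for polysomes against cytosol in DMSO. Taking unlisted ends as 0 with a mean count of at least 5 gave 5, 7, 3, 0 and 0 calls for H358 cisplatin, H358 oxaliplatin, A549R against A549 in DMSO and polysomes against cytosol in DMSO and cisplatin, and there the GSTP1 leading end turned from 0.01 to -0.68 in H358 oxaliplatin (adjusted p = 0.0027 by edgeR). With no minimum there were 7 and 5 calls for H358 cisplatin and oxaliplatin, 4 each for cisplatin in A549 and A549R, 2 and 4 for A549R against A549 in DMSO and cisplatin and 2 for polysomes against cytosol in DMSO. The cause was not tested. DESeq2 called 1 each for oxaliplatin and for cisplatin in A549 and A549R, and RLE scaling 0 for polysomes against cytosol in DMSO. Left out together after their values were seen, all cytosol libraries numbered 3 gave 2 lower calls for cisplatin in A549, 2 lower and 1 higher (the GSTP1 leading end) in A549R and 1 each for A549R against A549, and the A549 libraries numbered 3 gave 1 each for A549R against A549 and for cisplatin in polysomes and 4 for polysomes against cytosol in DMSO.

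Leaving out 1 library at a time gave 2 to 3 calls for H358 cisplatin, 0 to 2 for oxaliplatin, 0 to 2 for cisplatin against oxaliplatin, 0 to 1 for cisplatin in A549 and in A549R, 0 to 2 and 1 to 4 for polysomes against cytosol in DMSO and cisplatin, and 0 in the other comparisons. Of 420 leading-end values under other scalings, filters, tools and blocks, 395 kept their side of the threshold, as did 628 of 645 with a library left out. These numbers do not show that the direction held. With 1 library left out, the MT2A log2 change after cisplatin in A549 cytosol ranged from -1.54 to 2.61. Its log2 difference between polysomes and cytosol in DMSO ranged from -4.55 to 0.52. CPM over the whole total put the leading-end levels at a median of 64.0% of those printed (39.0% to 90.4%), and the cause was not tested. The 3 libraries a group, the listing limit of 5 counts and the unequal lists bound the precision of all values.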
